A study of Homo sapiens with 12 samples.

Results

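The genes described here are those that write, copy and erase 5-methylcytosine in DNA: the DNA methyltransferase genes DNMT1, DNMT3A and DNMT3B, their catalytically inactive relative DNMT3L, the maintenance cofactor gene UHRF1, and the dioxygenase genes TET1, TET2 and TET3. These 8 genes were taken by symbol from a table of 58219 genes. Their transcripts were followed during neural differentiation of H9, a widely used line of human embryonic stem cells, in SOX21-/- and wild-type form. Poly(A) RNA of SOX21-/- cells (libraries S13 and S23) and of wild-type cells (libraries WT1 and WT2) was sequenced at days 0, 4 and 8, which gave 12 libraries in 6 groups of 2. The labels name no other allele and no other agent. They do not say whether S13 and S23 are separate clones, nor whether a name that returns at a later day marks the same culture. The spread within a group may therefore be technical, and p-values measure that spread only. DNA methylation itself was not measured.

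DNMT1 copies methylation marks onto newly made DNA strands, and UHRF1 brings it to hemimethylated sites behind the replication fork. DNMT3A and DNMT3B set new marks, helped in germ cells and early embryos by DNMT3L. TET enzymes oxidise 5-methylcytosine, which leads to its loss through replication or base excision repair. In mammalian embryos and stem cells DNMT3B is known as an enzyme of the pluripotent state, and DNMT3A as the main de novo enzyme of the later nervous system.

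Values were in TPM, a share of all transcripts in a library that is corrected for gene length, so levels of different genes can be set side by side. TPM keeps no read numbers, and the depth of each library is unknown. Tests were made with limma on log2(TPM + 1) over the 24248 genes that reached 1 TPM in at least 2 libraries. A gene was called where its Benjamini-Hochberg adjusted p was under 0.05, and fold changes are on that log2 scale, which understates the change of low genes. Of the 8 genes, 7 entered the test and DNMT3L did not. The targeted gene SOX21 had 1.62 and 1.84 TPM in the day 0 libraries labelled SOX21-/-, against 1.26 and 1.39 TPM in wild type. SOX21 had 162 and 143 TPM in SOX21-/- libraries of day 4, against 156 and 166 TPM in wild type. By day 8 the values were 253 and 69.9 TPM in SOX21-/- libraries, against 129 and 100.04 TPM in wild type. The SOX21-/- libraries were the slightly higher pair at day 0 and overlapped wild type at days 4 and 8, so the transcript level gives no check of the labels. The sources used here do not give how the gene was disrupted.

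The day 0 libraries stood apart in makeup, which touches every comparison with day 0. Nuclear protein-coding genes held 55.9 to 56.4% of all TPM at day 0, 86.7 to 87.1% at day 4 and 83.5 to 86.4% at day 8. Processed pseudogenes held 11.1 to 12.4% at day 0, 0.454 to 0.523% at day 4 and 0.520 to 0.677% at day 8. The labels name 3 kinds of sequencing run without assigning them to libraries, so run and day cannot be told apart. On the deposited scale the median of all tested genes was 0.72 higher (log2) at day 4 than at day 0 in SOX21-/- cells, and 0.91 higher in wild-type cells. Changes between these days are therefore given on 3 scales: TPM, TPM rescaled within the nuclear protein-coding genes alone (the nuclear protein-coding scale), and median-of-ratios scaling, which sets the median change to 0. The nuclear protein-coding scale left part of the general shift. Its median step from day 0 to day 4 was still 0.42 in SOX21-/- and 0.55 in wild-type cells. The pluripotency gene POU5F1 ranged over 1507 to 1744 TPM at day 0, 20.5 to 32.4 TPM at day 4 and 0.283 to 1.41 TPM at day 8, and the summed TPM of 8 neural progenitor markers ranged over 40.0 to 47.3, 817 to 1077 and 1401 to 1647 at the same days. Not all 8 genes of the pluripotency list were lower after day 0: LIN28A ranged over 148 to 176, 844 to 952 and 608 to 701 TPM, and USP44 over 39.7 to 49.8, 47.6 to 67.3 and 49.6 to 76.5 TPM, at the same days. Whether a gene's level moved within cells or with the makeup of the culture cannot be told apart in bulk RNA.

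**Figure D1:**
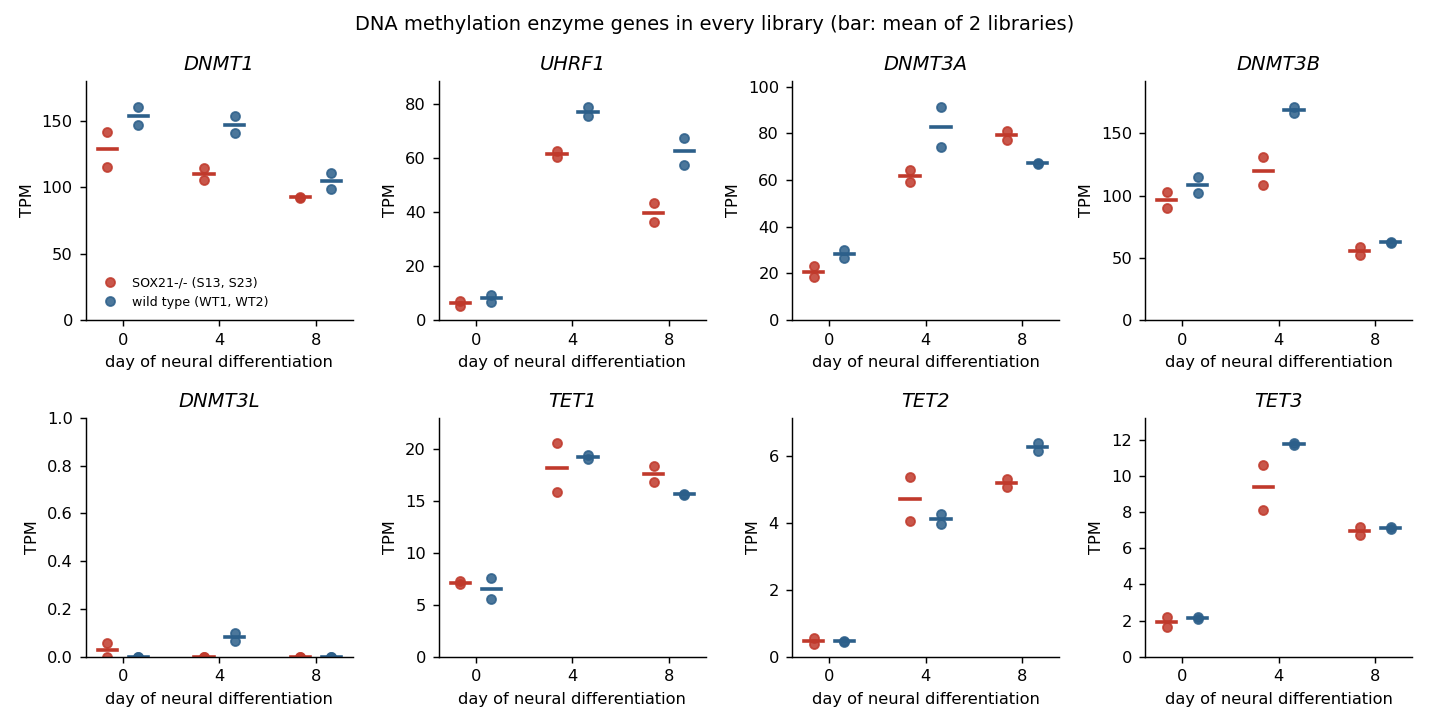
TPM (vertical axis, from 0) of the 8 genes at days 0, 4 and 8, with a point for each library and a bar for the mean of 2 libraries; SOX21-/- libraries are red and stand left of the wild-type libraries in blue. UHRF1 lies between 5.32 and 9.41 TPM at day 0 and at 36.1 TPM or more later, DNMT3B is lowest at day 8 (52.6 to 62.5 TPM), and DNMT3L stays under 0.1 TPM.

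Of the maintenance genes, UHRF1 rose steeply after day 0 on every scale, while the course of DNMT1 depended on the scale until day 4. UHRF1 (chr19:4903080-4962154, plus strand) had 7.21 and 5.32 TPM at day 0, 62.4 and 60.2 TPM at day 4 and 43.4 and 36.1 TPM at day 8 in SOX21-/- cells. In wild-type cells it had 9.41 and 6.65 TPM at day 0, 75.3 and 79.0 TPM at day 4 and 57.4 and 67.4 TPM at day 8. Every day 4 library lay above every day 8 library of its genotype, and every day 0 library lay far below them. UHRF1 was higher at day 4 than at day 0 by 3.11 (log2, SE 0.18, limma adjusted p = 1.83e-06) in SOX21-/- cells. The same step was 3.13 (SE 0.18, limma adjusted p = 1.53e-06) in wild-type cells. On the nuclear protein-coding scale these steps were 2.58 in SOX21-/- and 2.57 in wild-type cells, and with median-of-ratios scaling they were 2.00 and 1.78 in the same order. UHRF1 thus rose on each of the 3 scales in both genotypes.

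From day 4 to day 8 UHRF1 fell by 0.62 (SE 0.18, limma adjusted p = 0.0387) in SOX21-/- cells. The adjusted p of this call reached 0.183 when 1 library was left out, and it was lost without any 1 of 6 of the 12 libraries: WT1, WT2, S13 or S23 of day 4, or S13 or S23 of day 8. In wild-type cells the step was −0.31 (SE 0.18, limma adjusted p = 0.326). The change of the genotype difference over these days was −0.31 (SE 0.26, limma adjusted p = 0.622), so the steps were not shown to differ between genotypes.

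DNMT1 (chr19:10133345-10231286, minus strand) had 141 and 116 TPM at day 0, 106 and 114 TPM at day 4 and 91.9 and 92.9 TPM at day 8 in SOX21-/- cells. In wild-type cells it had 161 and 147 TPM at day 0, 141 and 153 TPM at day 4 and 98.3 and 110 TPM at day 8. The day 8 libraries were the lowest in each genotype, while the day 4 and day 0 libraries overlapped in wild-type cells and in SOX21-/- cells the day 4 libraries lay below those of day 0. Between day 4 and day 0 its TPM was not called different, at −0.22 (SE 0.11, limma adjusted p = 0.126) in SOX21-/- and −0.06 (SE 0.11, limma adjusted p = 0.637) in wild-type cells. Without S23 of day 0 the SOX21-/- step was called at an adjusted p of 0.0251. On the other 2 scales DNMT1 was called lower at day 4 than at day 0, at −0.84 in SOX21-/- and −0.70 in wild-type cells on the nuclear protein-coding scale, and at −1.43 and −1.49 in the same order with median-of-ratios scaling. In wild-type cells DNMT1 was called lower at day 8 than at day 4, at −0.49 (SE 0.11, limma adjusted p = 0.0259). That call was lost (adjusted p up to 0.139) without WT1 or WT2 of day 4 or of day 8. In SOX21-/- cells the step was −0.25 (SE 0.11, limma adjusted p = 0.14), and −0.51 and called with median-of-ratios scaling. S1PR2, a gene on the same strand whose annotation overlaps that of DNMT1, was listed at 1.56 to 11.8 TPM. Only gene spans were compared, so it is not known whether S1PR2 and DNMT1 share exon sequence. Whether reads were divided between them, which would make the DNMT1 value uncertain, was not tested.

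The ratio of the 2 maintenance transcripts needs no scaling, since both come from the same library. UHRF1 over DNMT1 ranged from 0.0453 to 0.0586 in the 4 libraries of day 0, from 0.515 to 0.591 at day 4 and from 0.389 to 0.611 at day 8. The day 4 libraries lay above all day 0 libraries, with no overlap, in both genotypes (4 against 4 libraries, two-sided exact permutation test, p = 0.0286, 0.04 after adjustment over 14 such tests, which is the smallest they can give). The day 8 range enclosed the day 4 range (exact permutation p = 0.686). These tests pool the genotypes, treat libraries that may be technical repeats as separate, and were chosen after the values were seen. Run and day cannot be told apart in the ratio either. Between genotypes, the day 8 ratio was 0.472 and 0.389 in SOX21-/- libraries, below 0.584 and 0.611 in wild type. The smallest two-sided exact p for 2 libraries against 2 is 0.333, so this difference could not be tested.

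The genotype difference in UHRF1 was largest at day 8. It was −0.31 (SE 0.18, 95% interval −0.73 to 0.11) at day 0 and −0.33 (SE 0.18, −0.74 to 0.09) at day 4. At day 8 it was −0.64 (SE 0.18, −1.06 to −0.22), with an unadjusted p of 0.0076 and a limma adjusted p of 0.118, and so it was not called. Both SOX21-/- libraries lay below both wild-type libraries at days 4 and 8, and the groups overlapped at day 0. For DNMT1 the difference was −0.26 (SE 0.11, −0.52 to −0.01) at day 0, −0.41 (SE 0.11, −0.67 to −0.16) at day 4 and −0.17 (SE 0.11, −0.43 to 0.08) at day 8, with limma adjusted p of 0.817, 0.125 and 0.521. The SOX21-/- libraries were below both wild-type libraries at each of the 3 days. With 1 library left out the day 0 difference ran from −0.41 to −0.12 for DNMT1 and from −0.53 to −0.087 for UHRF1, and the day 8 difference from −0.25 to −0.089 for DNMT1 and from −0.77 to −0.51 for UHRF1.

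Genes of S phase are often controlled by E2F factors, and UHRF1 is counted among E2F targets in human cells, so its promoter was read for E2F-type letters. The motif searched was TTTNNCGC, on both strands, in the 250 bases before each RefSeq transcript start (build GRCh38.p14). It occurred in 5.92% of 35116 such windows and in at least 1 window of 7.15% of 27305 genes. Of the 7 genes described here that had a window it occurred in UHRF1 alone, in 2 of its 3 windows, and of 17 S phase genes with a window it occurred in 9. A window of UHRF1 (chr19:4909894-4910143, plus strand, 32 CpG) and the window of MCM6, a subunit of the replicative helicase (chr2:135876444-135876693, minus strand, 24 CpG), are shown to let these letters be compared, with motif matches in capitals. In MCM6 the forward and reverse matches overlap at each of the capital runs. The median window held 11 CpG.
UHRF1: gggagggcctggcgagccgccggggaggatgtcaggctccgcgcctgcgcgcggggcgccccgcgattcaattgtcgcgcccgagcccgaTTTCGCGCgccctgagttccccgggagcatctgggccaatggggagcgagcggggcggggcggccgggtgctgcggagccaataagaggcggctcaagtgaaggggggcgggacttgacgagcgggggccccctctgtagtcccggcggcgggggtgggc
MCM6: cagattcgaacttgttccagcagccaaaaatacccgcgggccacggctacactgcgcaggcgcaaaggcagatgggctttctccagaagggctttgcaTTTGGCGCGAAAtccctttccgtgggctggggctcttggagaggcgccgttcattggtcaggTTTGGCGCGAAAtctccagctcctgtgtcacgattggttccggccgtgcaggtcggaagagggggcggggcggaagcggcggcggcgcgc
A match describes these letters only, and no binding was measured.

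Of the de novo genes, DNMT3B was the more abundant at days 0 and 4 and DNMT3A at day 8. DNMT3A (chr2:25227855-25342590, minus strand) had 23.2 and 18.4 TPM at day 0, 64.1 and 59.2 TPM at day 4 and 77.2 and 81.1 TPM at day 8 in SOX21-/- cells. Wild-type cells had DNMT3A at 29.8 and 26.7 TPM at day 0, 74.3 and 91.5 TPM at day 4 and 67.5 and 67.0 TPM at day 8. All day 0 libraries were below all later ones. In SOX21-/- cells the day 8 libraries were the highest, and in wild-type cells the day 4 libraries were.

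DNMT3A was higher at day 4 than at day 0 by 1.53 (SE 0.13, limma adjusted p = 1.68e-05) in SOX21-/- and by 1.51 (SE 0.13, limma adjusted p = 1.58e-05) in wild-type cells. On the nuclear protein-coding scale the DNMT3A steps were 0.93 in SOX21-/- and 0.90 in wild-type cells, both called (all genes: medians 0.42 and 0.55). With median-of-ratios scaling they were 0.35 (limma adjusted p = 0.0497) in SOX21-/- and 0.11 (limma adjusted p = 0.504) in wild-type cells. The size of the DNMT3A step thus depends on the scale, and in wild-type cells the call does too.

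The later DNMT3A steps, day 8 against day 4, differed in sign between the genotypes, and neither was called. The step was 0.35 (SE 0.13, limma adjusted p = 0.0881) in SOX21-/- cells and −0.29 (SE 0.13, limma adjusted p = 0.205) in wild-type cells. The change of the genotype difference was 0.64 (SE 0.19, 95% interval 0.21 to 1.08), with an unadjusted p of 0.00896 and a limma adjusted p of 0.148. Within each day the SOX21-/- libraries did not overlap the wild-type libraries: they were the lower pair at days 0 and 4 and the higher pair at day 8. The genotype difference was −0.43 (SE 0.13, limma adjusted p = 0.562) at day 0, −0.41 (SE 0.13, limma adjusted p = 0.178) at day 4 and 0.23 (SE 0.13, limma adjusted p = 0.466) at day 8. With 1 library left out it ran from −0.59 to −0.27 at day 0, from −0.56 to −0.27 at day 4 and from 0.20 to 0.27 at day 8.

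DNMT3B (chr20:32762385-32809356, plus strand) had 103 and 90.4 TPM at day 0, 131 and 108 TPM at day 4 and 52.6 and 58.7 TPM at day 8 in SOX21-/- cells. Wild-type cells had DNMT3B at 115 and 102 TPM at day 0, 166 and 171 TPM at day 4 and 62.1 and 62.5 TPM at day 8. The day 8 libraries were the lowest in both genotypes and overlapped no other day. DNMT3B fell from day 4 to day 8 by 1.09 (SE 0.11, limma adjusted p = 0.000624) in SOX21-/- and by 1.42 (SE 0.11, limma adjusted p = 0.000381) in wild-type cells. These steps were −1.07 and −1.39 on the nuclear protein-coding scale and −1.34 and −1.50 with median-of-ratios scaling, SOX21-/- first, all called. Both calls also held with any 1 of the 12 libraries left out, where the adjusted p was at most 0.00651.

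The earlier DNMT3B step had no stable direction. At day 4 against day 0 it was 0.30 (SE 0.11, limma adjusted p = 0.0486) in SOX21-/- and 0.63 (SE 0.11, limma adjusted p = 0.00114) in wild-type cells on the TPM scale. On the nuclear protein-coding scale the DNMT3B step was −0.32 (limma adjusted p = 0.0353) in SOX21-/- and 0.0049 (limma adjusted p = 0.974) in wild-type cells. With median-of-ratios scaling it was −0.91 in SOX21-/- and −0.79 in wild-type cells, both called. The SOX21-/- call on the TPM scale was lost without any 1 of 10 of the 12 libraries, with S13 of day 0 and S23 of day 4 the exceptions. The genotype difference in DNMT3B was −0.17 (SE 0.11, 95% interval −0.43 to 0.10) at day 0, −0.50 (SE 0.11, −0.76 to −0.24) at day 4 and −0.16 (SE 0.11, −0.42 to 0.10) at day 8. The day 4 difference had the smallest adjusted p of the 7 genes in any genotype comparison, limma adjusted p = 0.0924, with both SOX21-/- libraries below both wild-type libraries.

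DNMT3L (chr21:44246339-44262216, minus strand) was listed at 0 in 9 of the 12 libraries and at 0.0591 TPM in S23 of day 0, 0.0640 TPM in WT1 of day 4 and 0.0994 TPM in WT2 of day 4. It was at or near 0 at all 3 days, and no fold is given. The summed TPM of 5 markers of naive pluripotency was at most 1.99 in every library.

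Within the summed TPM of the DNMT genes, the makeup changed at each step, and these shares do not depend on the scale. DNMT3A held 8.18 to 9.77% at day 0, 19.5 to 22.0% at day 4 and 27.9 to 34.8% at day 8, with no overlap between days. DNMT3B held 37.1 to 40.3%, 38.4 to 43.6% and 23.7 to 27.3%, and DNMT1 held 51.5 to 53.2%, 35.1 to 40.6% and 39.9 to 46.0% at the same days. The DNMT3A share rose at both steps, the DNMT1 share fell at the first step and the DNMT3B share fell at the second (two-sided exact permutation tests of 4 against 4 libraries, p = 0.0286 each, 0.04 adjusted over 14 tests, the smallest these can give). The DNMT1 share from day 4 to day 8 (exact p = 0.0571) and the DNMT3B share from day 0 to day 4 (exact p = 0.0857) were not called. These tests pool the genotypes and were chosen after the values were seen.

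The ratio of DNMT3B to DNMT3A in SOX21-/- libraries was 4.44 and 4.92 at day 0. It was 2.04 and 1.83 at day 4, and 0.681 and 0.724 at day 8. In wild-type libraries it was 3.85 and 3.82, 2.24 and 1.87, and 0.920 and 0.933 at the same days. DNMT3B was thus the more abundant transcript of the pair at days 0 and 4 in every library and the less abundant at day 8 in every library. At day 8 the SOX21-/- ratios were the lower pair, with DNMT3A shares of 34.8% and 34.8% in SOX21-/- libraries, against 29.6% and 27.9% in wild type. With 2 libraries against 2 this difference could not be tested.

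**Figure D2:**
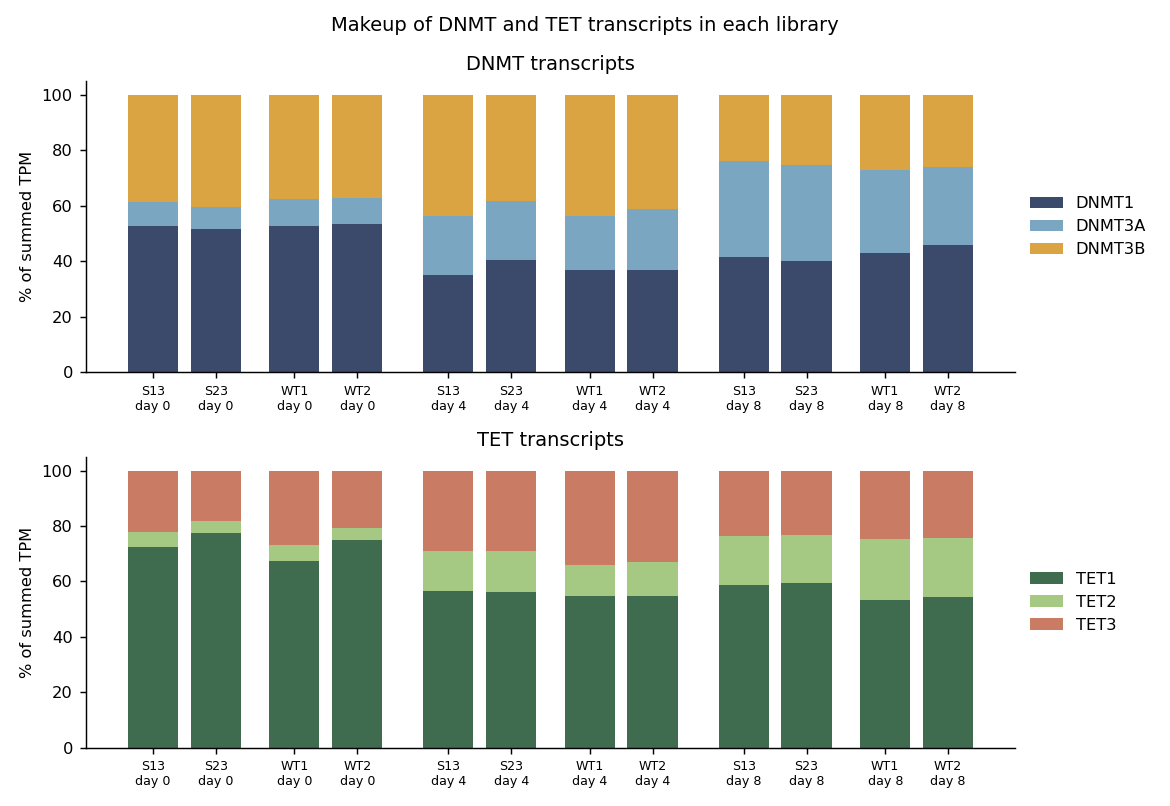
Share of the summed TPM (vertical axis, percent) held by DNMT1, DNMT3A and DNMT3B (upper panel) and by TET1, TET2 and TET3 (lower panel) in each library, with SOX21-/- libraries left of wild type at each day. The DNMT3A segment spans 8.18 to 9.77% at day 0 and 27.9 to 34.8% at day 8, and the TET2 segment spans 4.17 to 5.89% at day 0 and 17.2 to 21.9% at day 8.

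By level, DNMT1 was the most abundant of the 8 transcripts in every library of day 0, followed by DNMT3B, then DNMT3A, UHRF1 and TET1, TET3, TET2 and DNMT3L. UHRF1 and TET1 overlapped at that day. At day 4 DNMT3B was above DNMT1 in both wild-type libraries, while the 2 genes overlapped in SOX21-/- libraries. At day 8 the order of the enzymes was DNMT1, DNMT3A and DNMT3B in every library, and UHRF1 was the fourth in SOX21-/- cells and overlapped DNMT3B and DNMT3A in wild-type cells.

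On the TPM scale all 3 TET transcripts rose between day 0 and day 4, and TET2 and TET3 did so on each of the 3 scales. TET1 (chr10:68560656-68694482, plus strand), the TET enzyme of the pluripotent state, had 7.26 and 6.98 TPM at day 0, 15.9 and 20.6 TPM at day 4 and 16.9 and 18.4 TPM at day 8 in SOX21-/- cells. In wild-type cells it had 5.54 and 7.59 TPM at day 0, 19.0 and 19.4 TPM at day 4 and 15.6 and 15.7 TPM at day 8. All day 0 libraries were below all later ones, and the genotypes overlapped at days 0 and 4. TET1 was higher at day 4 than at day 0 by 1.23 (SE 0.16, limma adjusted p = 0.000194) in SOX21-/- and by 1.43 (SE 0.16, limma adjusted p = 6.89e-05) in wild-type cells. With median-of-ratios scaling these TET1 steps were 0.11 (limma adjusted p = 0.589) and 0.12 (limma adjusted p = 0.563), SOX21-/- first, so the calls rest on the scale. On the nuclear protein-coding scale they were 0.68 and 0.87, both called, beside medians of 0.42 and 0.55 for all genes. COX20P1, a processed pseudogene inside the TET1 gene, was listed at 10.8 to 19.4 TPM at day 0 and at most 0.885 TPM later. Only gene spans were compared, so it is not known whether COX20P1 and TET1 share exon sequence. Whether reads were divided between them, which would make the day 0 value of TET1 uncertain, was not tested.

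TET2 (chr4:105145875-105279816, plus strand), the TET gene best known from blood cells, had 0.549 and 0.375 TPM at day 0, 4.06 and 5.35 TPM at day 4 and 5.08 and 5.31 TPM at day 8 in SOX21-/- cells. Wild-type cells had TET2 at 0.485 and 0.445 TPM at day 0, 3.96 and 4.27 TPM at day 4 and 6.37 and 6.14 TPM at day 8. The day 0 libraries were the lowest throughout, and in wild-type cells the 3 days did not overlap. TET2 was higher at day 4 than at day 0 by 1.96 (SE 0.17, limma adjusted p = 1.71e-05) in SOX21-/- and by 1.80 (SE 0.17, limma adjusted p = 2.43e-05) in wild-type cells. It was called higher on the other scales too, by 1.81 and 1.65 on the nuclear protein-coding scale and by 1.36 and 1.05 with median-of-ratios scaling, SOX21-/- first. In TPM every day 0 value lay under the 1 TPM filter, so TET2 entered the test through days 4 and 8 alone. The filter thus favoured a call at this step, and the TPM values are the firmer description. The later TET2 step, day 8 against day 4, was 0.13 (SE 0.17, limma adjusted p = 0.649) in SOX21-/- and 0.50 (SE 0.17, limma adjusted p = 0.0965) in wild-type cells.

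TET3 (chr2:73986404-74108176, plus strand), known from the zygote and from neurons, had 2.21 and 1.64 TPM at day 0, 8.13 and 10.6 TPM at day 4 and 6.73 and 7.17 TPM at day 8 in SOX21-/- cells. Wild-type cells had TET3 at 2.21 and 2.12 TPM at day 0, 11.8 and 11.7 TPM at day 4 and 7.19 and 7.06 TPM at day 8. The day 4 libraries were the highest in each genotype, with no overlap between days. TET3 was higher at day 4 than at day 0 by 1.82 (SE 0.16, limma adjusted p = 1.89e-05) in SOX21-/- and by 2.01 (SE 0.16, limma adjusted p = 9.35e-06) in wild-type cells, and by 0.89 and 0.86 with median-of-ratios scaling, SOX21-/- first, all called. At day 8 against day 4 the TET3 step was −0.37 (SE 0.16, limma adjusted p = 0.132) in SOX21-/- cells, and called with median-of-ratios scaling at −0.58. In wild-type cells the step was −0.65 (SE 0.16, limma adjusted p = 0.0367). That call was lost, with an adjusted p of up to 0.139, without WT1 or WT2 of any 1 day.

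Among the TET transcripts the shares also moved. TET1 held 67.2 to 77.6% of the summed TET TPM at day 0, 54.7 to 56.5% at day 4 and 53.5 to 59.6% at day 8. TET2 held 4.17 to 5.89%, 11.4 to 14.7% and 17.2 to 21.9%, and TET3 held 18.3 to 26.9%, 29.0 to 33.9% and 23.2 to 24.7% at the same days. The day 0 share of TET2 rests on values under 1 TPM. TET1 remained the most abundant in every library. The TET2 share rose at both steps, the TET1 share fell at the first, and the TET3 share rose at the first and fell at the second (exact permutation p = 0.0286 each, 0.04 adjusted over 14 tests). Here too the tests pool the genotypes and were chosen after the values were seen. At day 8 the TET2 share was 17.7% and 17.2% in SOX21-/- libraries and 21.9% and 21.2% in wild-type libraries, which did not overlap.

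**Figure D3:**
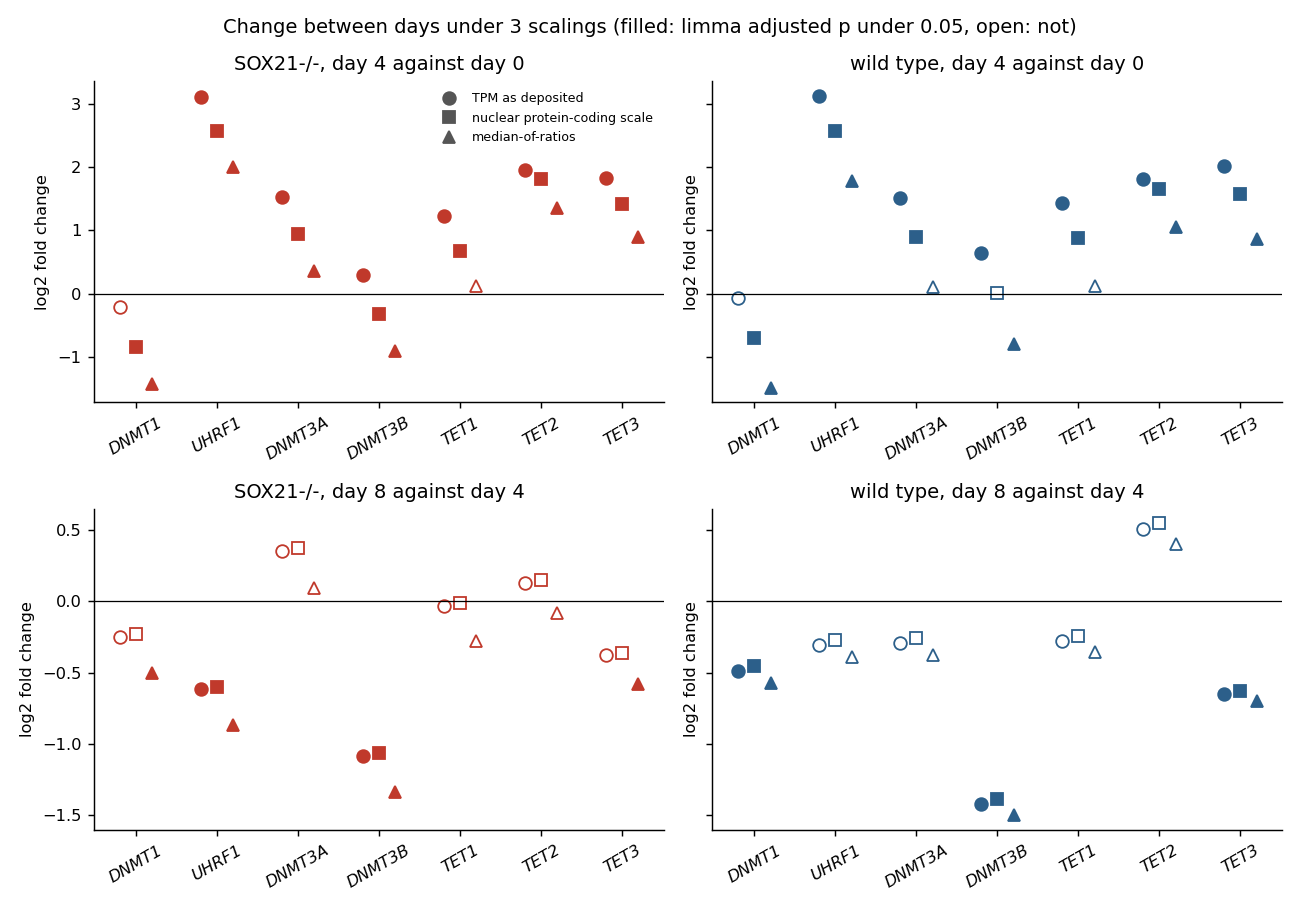
Log2 fold change between days (vertical axis) of the 7 tested genes in SOX21-/- cells (left) and wild-type cells (right), for day 4 against day 0 (upper) and day 8 against day 4 (lower); circles are TPM, squares the nuclear protein-coding scale and triangles median-of-ratios scaling, filled where called. UHRF1, TET2 and TET3 lie above 0 on each scale in the upper panels, DNMT3B changes side, and DNMT3B is the lowest gene in the lower panels.

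Counted together, 6 of the 7 tested genes were called higher at day 4 than at day 0 in SOX21-/- cells, where 60.6% of all genes were called, 48.1% higher and 12.5% lower. The count was also 6 of 7 in wild-type cells, where 65.7% of all genes were called, 54.3% higher and 11.4% lower, and DNMT1 was the exception in each. With median-of-ratios scaling the split was 4 higher and 2 lower in SOX21-/- and 3 higher and 2 lower in wild-type cells. On the nuclear protein-coding scale it was 5 higher and 2 lower in SOX21-/- and 5 higher and 1 lower in wild-type cells. Of all 14809 genes tested on that scale, 6832 were called higher and 3192 lower in SOX21-/- cells. In wild-type cells 7651 were called higher and 2848 lower. The median step of the 7 genes was 1.53 in SOX21-/- and 1.51 in wild-type cells, beside 0.72 and 0.91 for all genes in the same order. For nuclear protein-coding genes alone, the class of all 7, the medians in TPM were higher, at 0.90 and 1.06. UHRF1, TET2 and TET3 were called higher on each of the 3 scales in both genotypes. In TPM, TET2 passed the filter only through days 4 and 8, so its call is not free of the filter. At day 8 against day 4, 2 of 7 were called lower in SOX21-/- cells, DNMT3B and UHRF1, where 26.1% of all genes were called, 19.0% higher and 7.15% lower. In wild-type cells 3 of 7 were called lower, DNMT1, DNMT3B and TET3, where 12.6% of all genes were called, 7.62% higher and 4.99% lower. Median-of-ratios scaling turned the balance of all genes: at day 4 against day 0 it called 5370 higher and 6701 lower in SOX21-/- and 5474 higher and 6903 lower in wild-type cells, and at day 8 against day 4 it called 2327 higher and 2927 lower in SOX21-/- and 1145 higher and 1498 lower in wild-type cells. No gene of the 7 was called higher at that step, and DNMT3A in SOX21-/- cells and TET2 in wild-type cells were the genes with an unadjusted p under 0.05 in that direction.

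The 7 tested genes were not called different between SOX21-/- and wild-type cells at any day. In a simulation that changed genes drawn at random from all tested genes, genotype differences of 0.5 (log2) were recovered in at most 8% at any day. That rate is an average over genes of unlike level and spread, and the rate for these 7 genes was not simulated. The lack of a call does not show equal levels. With limma 0 of 7 were called at day 0, 0 of 7 at day 4 and 0 of 7 at day 8, where 0.384%, 0.775% and 2.79% of all genes were called. Those called lower were 0.223%, 0.536% and 1.32% of all genes at the same days, and those called higher were 0.161%, 0.239% and 1.47%. At an unadjusted p under 0.05 there were 2 at day 0 (DNMT1 and DNMT3A), 3 at day 4 (DNMT1, DNMT3A and DNMT3B) and 1 at day 8 (UHRF1), where 5.88%, 16.9% and 16.3% of all genes were under it. The median difference of the 7 genes was −0.17 at day 0, −0.33 at day 4 and −0.16 at day 8, beside 0, −0.12 and 0 for all genes. With median-of-ratios scaling the day 4 differences were −0.24 for DNMT1, −0.15 for UHRF1, −0.23 for DNMT3A and −0.32 for DNMT3B. At day 4 both SOX21-/- libraries were below both wild-type libraries for 5 of the 7 genes (DNMT1, UHRF1, DNMT3A, DNMT3B and TET3), which was the case for 33.8% of all genes. At day 0 this held for 2 of 7 (DNMT1 and DNMT3A, 14.0% of all genes). At day 8 it held for 4 of 7 (DNMT1, UHRF1, DNMT3B and TET2, 21.7% of all genes), and the SOX21-/- libraries were the higher pair for DNMT3A and TET1 (21.4% of all genes).

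For the TET genes the intervals bound the genotype difference on the log2(TPM + 1) scale only. At day 8 the 95% interval was −0.21 to 0.53 for TET1, −0.62 to 0.17 for TET2 and −0.40 to 0.34 for TET3. At day 4 it was −0.46 to 0.29 for TET1, −0.25 to 0.54 for TET2 and −0.68 to 0.07 for TET3, and at day 0 it was −0.26 to 0.49 for TET1, −0.40 to 0.39 for TET2 and −0.49 to 0.25 for TET3. The day 8 interval of UHRF1, −1.06 to −0.22, overlapped those of TET2 and TET3 and ended next to that of TET1. Whether the UHRF1 difference was unlike those of the TET genes was not tested. The scale understates the change of low genes, so the TET2 interval does not bound an equal fold in TPM. A change of the genotype difference between days was called for none of the 7 genes with limma: 0 were called from day 0 to day 4, where 0.408% of all genes were (0.169% higher, 0.239% lower), and 0 from day 4 to day 8, where 1.11% were (0.788% higher, 0.326% lower). At an unadjusted p under 0.05 there were 0 for the first and 1 for the second, DNMT3A, where 12% and 16.4% of all genes were under it.

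**Figure D4:**
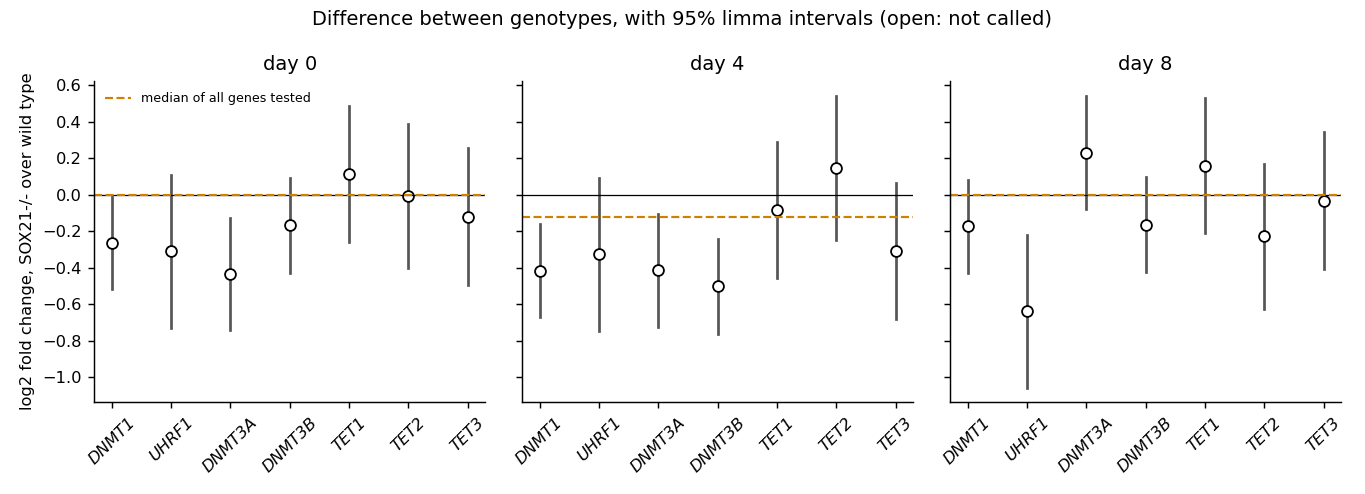
Log2 fold change of SOX21-/- over wild type (vertical axis) for the 7 tested genes at days 0, 4 and 8, with 95% limma intervals as bars and the median of all genes as a dashed line; open points are genes that were not called. No point is filled; UHRF1 at day 8 lies lowest, at −0.64, and DNMT3A is at −0.41 at day 4 and 0.23 at day 8.

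UHRF1 is made mainly in cells that replicate their DNA, and genes of DNA replication were among those called lower in SOX21-/- cells at day 8. Of 20 S phase genes tested, 7 were called lower and 0 higher at day 8, where 1.32% of all genes were called lower. These were MCM2, MCM3, MCM4, MCM6 and MCM7 of the replicative helicase, GINS2, a part of the same machine, and UNG, which removes uracil from DNA. The median of the 20 was −0.38, beside 0 for all genes. This list and those below were chosen with earlier results of these data known. Their counts set beside the shares of all genes are therefore descriptions and no independent test. At days 0 and 4 no S phase gene was called, with list medians of −0.0027 at day 0 and 0.0052 at day 4, beside 0 and −0.12 for all genes. MCM7 had 194 and 162 TPM in SOX21-/- libraries of day 8, against 286 and 311 TPM in wild type, a difference of −0.74 (SE 0.10, limma adjusted p = 0.00836). The MCM7 call was lost without WT2 of day 8 (adjusted p = 0.0795). Other calls of the list were less firm. Of the 12 fits with 1 library left out, MCM4 was lost in 11, GINS2 in 10, MCM2 and MCM3 in 6 each, and MCM6 in 4. MCM4 was not called with median-of-ratios scaling either (limma adjusted p = 0.0831). The count of 7 was 0 to 7 with 1 library left out; leaving out WT1 or WT2 of day 4, or any library of day 8, moved it by over 1.5 times.

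Which libraries enter and how the spread is modelled also decided that count. It was 0 with the 4 libraries of day 8 alone and 1 without a trend in the moderated variances, and 5 with median-of-ratios scaling. The summed TPM of 6 neuron markers was 120 to 168 in SOX21-/- libraries and 245 to 256 in wild-type libraries at day 8, and 70.1 to 102 in SOX21-/- and 170 to 183 in wild-type libraries at day 4. The sum is mostly TUBB3 and STMN2, and at day 8 ELAVL3 (2.69 and 9.16 TPM in SOX21-/- against 1.40 and 1.5 TPM in wild-type libraries) and ELAVL4 (2.05 and 2.95 against 0.259 and 0.828 TPM) were higher in SOX21-/- libraries. All 8 neural progenitor markers reached 1 TPM in every library of day 8, with a summed TPM of 1594 to 1647 in SOX21-/- and 1401 to 1431 in wild-type libraries. Of these, SIX3 (7.79 to 12.2 TPM in SOX21-/- against 46.0 to 58.2 TPM in wild-type libraries), LHX2 (43.5 to 59.4 against 85.7 to 87.2 TPM) and HES5 (112 to 128 against 156 to 157 TPM) were lower in SOX21-/- libraries. The 5 endoderm markers summed to 90.8 to 110 TPM in SOX21-/- and 29.5 to 30.7 TPM in wild-type libraries of day 8, nearly all of it CXCR4, with SOX17 and FOXA2 listed at 0. The part of cell makeup in the S phase and UHRF1 values was not tested.

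Of 11 tested maintenance partners, 2 were called lower in SOX21-/- cells at day 8, where 1.32% of all genes were called lower. CDCA7, which brings the remodeller HELLS to chromatin, had 28.9 and 20.2 TPM in SOX21-/- libraries and 40.6 and 48.7 TPM in wild-type libraries, a difference of −0.85 (SE 0.17, limma adjusted p = 0.0383). PCNA, the sliding clamp that DNMT1 binds at the fork, had 206 and 167 TPM in SOX21-/- libraries and 282 and 312 TPM in wild-type libraries, a difference of −0.68 (SE 0.12, limma adjusted p = 0.0283). The groups did not overlap for either gene. Both calls were lost without any 1 of 9 of the 12 libraries (adjusted p up to 0.216 for CDCA7 and 0.181 for PCNA), on the libraries of day 8 alone, on those of days 4 and 8, and without a variance trend. With no filter or with the replicate block 1 of the 11 was called, PCNA, and with median-of-ratios scaling or on the nuclear protein-coding scale 3 were. HELLS had 74.8 and 90.3 TPM in SOX21-/- libraries and 85.2 and 83.4 TPM in wild-type libraries, which overlapped, and the median of the 11 partners was −0.04.

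**Figure D5:**
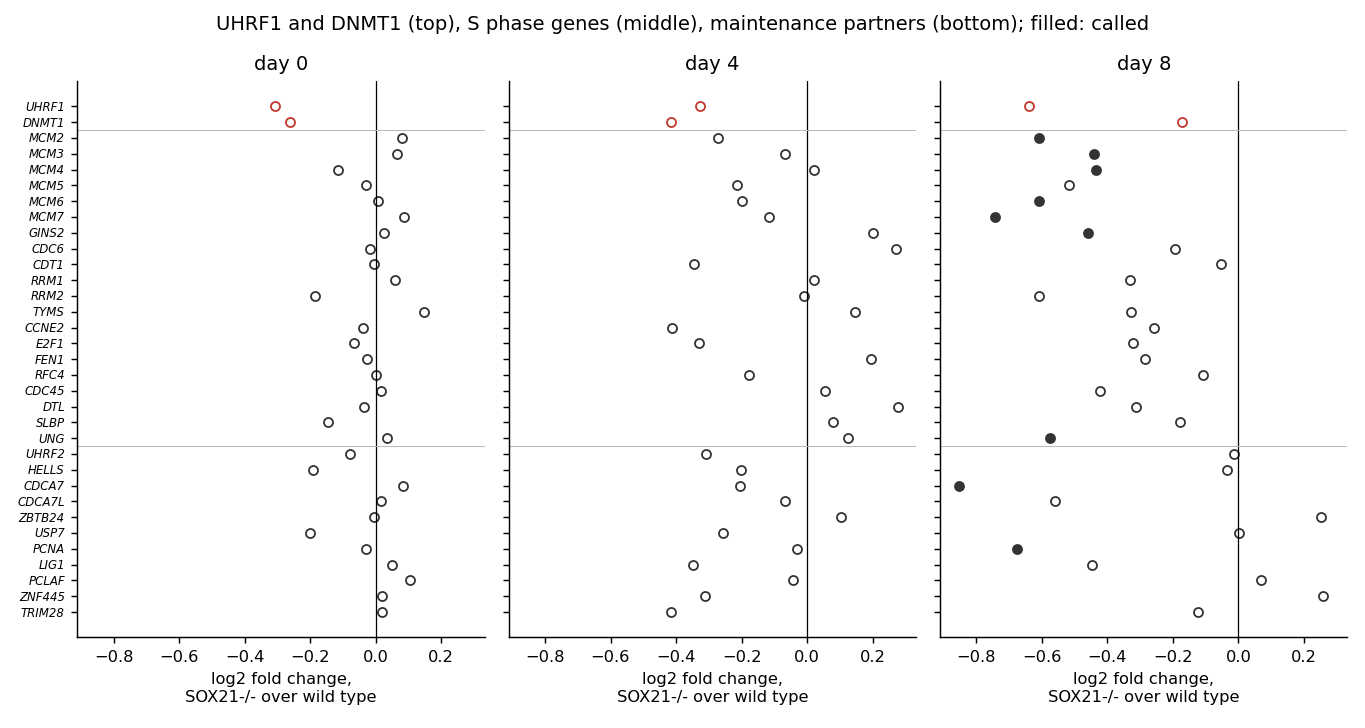
Log2 fold change of SOX21-/- over wild type (horizontal axis) at days 0, 4 and 8 for UHRF1 and DNMT1 (red, top), 20 S phase genes (middle) and 11 maintenance partners (bottom), filled where called. At day 8 the S phase genes all lie left of 0 with a median of −0.38, and 7 of them are filled, beside UHRF1 at −0.64; at day 0 their median is −0.0027.

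The S phase list, at day 8 against day 4, had 13 of 20 genes called lower and 0 higher in SOX21-/- cells (7.15% of all genes called lower), with a median of −0.61 beside 0.20 for all genes. In wild-type cells 6 of 20 were called lower and 0 higher (4.99% of all genes called lower), with a median of −0.17 beside 0.03. The wild-type count was as low as 1 with 1 library left out (WT1 or WT2 of day 4, or WT1 of day 8), and the SOX21-/- count stayed at 10 to 13. The change of the genotype difference was called for 0 of the 20, with a list median of −0.43 beside 0.12 for all genes. At the first step 18 of 20 S phase genes were called higher in each genotype on the TPM scale, but 10 in SOX21-/- and 8 in wild-type cells with median-of-ratios scaling, which called 6 lower in each.

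The enzymes that supply and remove the reactants of methylation were mostly not called between genotypes. Of 15 tested genes of the S-adenosylmethionine and folate cycle, AHCY, which clears the product inhibitor of methyltransferases, had 173 and 161 TPM in SOX21-/- libraries of day 8, against 225 and 240 TPM in wild type. Its difference of −0.48 (SE 0.07, limma adjusted p = 0.0161) was called, and lost without S23, WT1 or WT2 of day 8. AHCYL1, a relative of AHCY that binds the inositol trisphosphate receptor, had 98.8 and 95.5 TPM in SOX21-/- libraries and 73.2 and 65.1 TPM in wild type at day 8. Its difference of 0.49 (SE 0.09, limma adjusted p = 0.0348) was lost without any 1 of 8 of the 12 libraries. The other 13 were not called. At day 8, 1.32% of all genes were called lower and 1.47% higher.

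Of 14 tested genes of 2-oxoglutarate supply and TET partners, 1 was called lower at day 8 and 0 higher, beside 1.32% and 1.47% of all genes. This was IDH2, which makes 2-oxoglutarate, the cosubstrate of TET enzymes, in mitochondria. IDH2 had 110 and 91.1 TPM in SOX21-/- libraries and 160 and 155 TPM in wild-type libraries, a difference of −0.65 (SE 0.10, limma adjusted p = 0.0141), lost without S23, WT1 or WT2 of day 8. CXXC4, whose protein lowers TET2 protein in mouse cells, had 13.4 and 13.7 TPM in SOX21-/- libraries of day 4 and 42.9 and 41.7 TPM in wild type. At day 8 CXXC4 had 22.4 and 28.4 TPM in SOX21-/- libraries, against 60.1 and 78.4 TPM in wild type. The groups were far apart at both days, but the differences of −1.58 (SE 0.33, limma adjusted p = 0.0754) and −1.41 (SE 0.33, limma adjusted p = 0.0652) were not called. CXXC4 was singled out after its values were seen.

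Among 15 tested genes of base excision and active demethylation, UNG and APEX1 were called lower at day 8 in SOX21-/- cells and 0 higher. Of all genes 1.32% were called lower and 1.47% higher there. UNG is also among the S phase genes called lower at day 8, so that gene counts in both lists. APEX1, which cuts DNA at sites that have lost their base, had 169 and 172 TPM in SOX21-/- libraries and 219 and 233 TPM in wild type, a difference of −0.40 (SE 0.08, limma adjusted p = 0.0322) that was lost without any 1 library of day 8 or any wild-type library of day 4. TDG, which removes the oxidised bases that TET enzymes make, had 41.1 and 42.1 TPM in SOX21-/- libraries of day 8 and 38.8 and 37.6 TPM in wild type, and it was lower at day 8 than at day 4 in both genotypes. That step was −0.54 (limma adjusted p = 0.00824) in SOX21-/- and −0.59 (limma adjusted p = 0.012) in wild-type cells. At this step 2 of the 15 genes were called higher and 4 lower in SOX21-/- cells, where 19.0% of all genes were called higher and 7.15% lower. In wild-type cells 2 were called higher and 3 lower, beside 7.62% and 4.99% of all genes. Of 11 methyl-CpG binding proteins 0 were called between genotypes at any day. MBD4, a glycosylase that reads methylated sites, was higher at day 8 than at day 4 by 0.62 (limma adjusted p = 0.00839) in SOX21-/- and 0.49 (limma adjusted p = 0.0369) in wild-type cells. Of these 11 genes, 3 were called higher and 1 lower at that step in SOX21-/- cells, and 1 higher and 1 lower in wild-type cells.

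Of 12 germline genes known to be silenced by promoter methylation, 1 entered the test. DAZL, an RNA-binding protein of germ cells, had 4.56 and 3.34 TPM at day 0, 3.58 and 5.16 TPM at day 4 and 0.207 and 0.0354 TPM at day 8 in SOX21-/- cells. Wild-type cells had DAZL at 3.56 and 3.95 TPM at day 0 and 5.12 and 4.15 TPM at day 4, and it was listed at 0 in both libraries of day 8. DAZL was lower at day 8 than at day 4 in every library. The step was called in both genotypes (limma adjusted p = 0.000496 in SOX21-/- and 0.000664 in wild-type cells). Of all genes, 7.15% were called lower at this step in SOX21-/- and 4.99% in wild-type cells. DAZL passed the filter only through days 0 and 4, where it was high, so the filter favoured this call. The step is therefore given as a description of 1 gene, and its link to methylation was not tested.

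The genes whose course over the 12 libraries was most like that of each member were found by the mean absolute difference of centred log2(TPM + 1) values over 14430 tested protein-coding genes. For DNMT1 these were SLC38A2 (0.083), HNRNPU (0.085) and SMYD5 (0.087), against a median of 0.70 over all candidates. For UHRF1 they were NUTM2D (0.13), GLIPR2 (0.17) and CTXN1 (0.17), against a median of 0.89. For DNMT3A they were ERLIN2 (0.081), ZNF865 (0.089) and RAPH1 (0.099), and for DNMT3B SNTB1 (0.16), OPTC (0.18) and DACT2 (0.18), with medians of 0.43 and 0.82. For TET1 they were SPTLC1 (0.083), PCBP2 (0.085) and ZDHHC12 (0.089), for TET2 ZNF354B (0.083), the base excision glycosylase NEIL3 (0.090) and B4GAT1 (0.093), and for TET3 EDRF1 (0.069), NECTIN1 (0.080) and SMCR8 (0.081). Likeness over 12 libraries says nothing of shared function.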

How the data were processed

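The authors deposited a table of TPM per gene for 12 poly(A) RNA libraries, made with Salmon 0.8.2 and CASAVA 1.7 on hg38, per the submitters' processing notes. Annotation release, strand use and read numbers are not given in the sources used here. TPM keeps no depth, so its precision is unknown.

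Tested genes (24248 of 58219) reached 1 TPM in 2 libraries or more. The test was limma 3.58.1 (R 4.3.3) on log2(TPM + 1), pseudocount 1: 6 group means, all 12 libraries, 6 residual degrees of freedom, variances moderated along a trend, two-sided, Benjamini-Hochberg adjusted over all tested genes, threshold 0.05. It covered SOX21-/- against wild type at each day, later against earlier days within a genotype, and the change of the genotype difference between days. A simulation with 50 changed genes of each size showed how often this fit finds a genotype difference. The changed genes were drawn at random from the 24248 tested genes, and the other genes were given equal means in all groups. Its rates are therefore not those of the members. A log2 change of 0.5 was recovered in 0% of changed genes at day 0, 6% at day 4 and 8% at day 8. For a change of 1 the values were 16, 24 and 32%, and for a change of 2 they were 54, 54 and 58%, at the same days.

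The 8 members and the gene lists were chosen with earlier results of these data known. Text names the members, SOX21, the 3 genes most like each tested member, and list genes that passed. HELLS and CXXC4 were named after their values were seen, and the exact tests of shares and ratios (scipy 1.17.1) and the promoter search were chosen then too.

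The alternatives tried were pseudocount 0.1, a 5 TPM filter, no filter, median-of-ratios scaling, the nuclear protein-coding scale, variances without a trend, fits on fewer days, library names as a replicate block, and each library left out. Gene positions are from GENCODE release 29 (GRCh38), to which 57881 identifiers matched without version; promoter windows are from RefSeq, build GRCh38.p14.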

Additional observations from a re-analysis of the deposited data

Results flagged for a closer look

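2 genes of the pathway lists had a genotype difference that changed from day 4 to day 8 with limma. APEX1 changed by −0.60 (SE 0.11, limma adjusted p = 0.0458): it had 169 and 172 TPM in SOX21-/- libraries and 219 and 233 TPM in wild-type libraries at day 8, and 342 and 323 TPM in SOX21-/- and 294 and 283 TPM in wild-type libraries at day 4. AHCYL1 changed by 0.73 (SE 0.13, limma adjusted p = 0.0495): it had 98.8 and 95.5 TPM in SOX21-/- libraries and 73.2 and 65.1 TPM in wild-type libraries at day 8, and 51.4 and 48.0 TPM in SOX21-/- and 57.7 and 60.1 TPM in wild-type libraries at day 4. For each gene the order of the genotypes turned between the days. Both calls were lost with any 1 of the 12 libraries left out.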

How the results depend on the processing

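Between genotypes, and for the change of their difference, the count called among the 7 tested genes was 0 under each alternative that gave a value and with each of 12 libraries left out. At day 4 against day 0 it was 5 to 6 in SOX21-/- and 6 in wild-type cells with 1 library left out, and at day 8 against day 4 it was 1 to 2 in SOX21-/- and 1 to 3 in wild-type cells. This last count was 2 in SOX21-/- cells as reported, 4 with median-of-ratios scaling, and 1 with a pseudocount of 0.1, with no filter and with no variance trend, where UHRF1 was lost. Whether library names pair the samples was not settled. Same-named libraries of different days had correlations of −0.0060 to 0.071 in their deviations from group means across genes. Culture or clone effects confined to some genes would not show in such a correlation. With these names as a replicate block, 1 gene was called in wild-type cells at day 8 against day 4, against 3 without it, DNMT1 and TET3 being lost, and the SOX21-/- DNMT3B call at day 4 against day 0 was lost too (adjusted p = 0.0697).

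Median-of-ratios scaling reversed TET1 at day 4 between genotypes (0.086), TET2 at day 8 against day 4 in SOX21-/- cells (−0.086), and the change of the genotype difference from day 0 to day 4 of DNMT1 (0.062), UHRF1 (0.21) and TET3 (0.032). At day 4 against day 0 it reversed DNMT3B (−0.91 in SOX21-/-, −0.79 in wild type), MCM4 (−0.84, −1.19), CDCA7 (−0.56, −0.48), AHCYL1 (−0.41, −0.44) and, in wild type, UNG (−0.27). The nuclear protein-coding scale reversed SOX21-/- DNMT3B (−0.32), MCM4 (−0.25, −0.39) and the UHRF1 change of difference (0.0089), which a pseudocount of 0.1 reversed too (0.018). The cause was not tested.

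With 1 library left out, these uncalled values spanned 0. Between genotypes, TET1 ran −0.082 to 0.31 at day 0 and −0.26 to 0.093 at day 4, TET2 ran −0.091 to 0.081 at day 0 and −0.014 to 0.31 at day 4, and TET3 ran −0.26 to 0.020 at day 0 and −0.071 to 0.0090 at day 8. DNMT1 in wild type ran −0.13 to 0.00060 at day 4 against day 0. At day 8 against day 4 in SOX21-/- cells, TET1 ran −0.21 to 0.14 and TET2 −0.037 to 0.29. The change of difference from day 0 to day 4 ran −0.24 to 0.20 for UHRF1, −0.14 to 0.18 for DNMT3A and −0.0093 to 0.32 for TET2. TPM without read numbers limits what can be said of genes near 0, such as DNMT3L.

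Over all genes, 93 were called between genotypes at day 0, against 203 with median-of-ratios scaling, 159 with no filter, 8 on the nuclear protein-coding scale, 52 with the replicate block and 45 with day 0 alone. At day 4 the count was 188 (58 higher, 130 lower), against 120 with median-of-ratios scaling (82 higher, 38 lower) and 0 with the replicate block, with day 4 alone and with days 4 and 8. At day 8 it was 676, against 382 with the replicate block, 312 with days 4 and 8 and 34 with day 8 alone, and the 7 S phase genes called lower were 3 with the replicate block. The change of the genotype difference was called for 99 genes from day 0 to day 4, against 163 with no filter, 58 with a 5 TPM filter, 26 on the nuclear protein-coding scale and 22 with the replicate block. From day 4 to day 8 it was called for 270, against 154 with a pseudocount of 0.1, 112 with median-of-ratios scaling, 45 with days 4 and 8 and 17 with the replicate block.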
